A study of Mus musculus with 12 samples.

Results

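The core circadian clock genes described here are Arntl, Clock, Npas2, Per1, Per2, Per3, Cry1, Cry2, Nr1d1 and Nr1d2. They were chosen by name, as the textbook members of the clock loop and with earlier results of these data known, from 24787 gene symbols counted in mouse liver RNA. All 10 had enough reads to be among the 14172 genes tested. Liver RNA of C57Bl/6 mice was sequenced in 3 groups of 4 libraries. In the HFD+MEC1 group, mice on a high-fat diet were injected intraperitoneally every day with MEC1 at 0.5 mg/kg. MEC1 is the compound under study, in a series on mitophagy and PROTACs, molecules that recruit a ubiquitin ligase to a target protein. In the HFD group, mice on the same diet received vehicle injections, and in the ND group mice ate a normal diet. Diets had been given for 2 months before injections began, and HFD mice were split at random into the vehicle and MEC1 groups. Whether ND mice were injected, how long MEC1 was given, and the sex and age of the mice are not given in the sources used here. The time of day at which livers were taken is likewise not given, and transcripts of this set change over the day.

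The mammalian clock is a feedback loop of transcription and translation that runs in nearly every cell, hepatocytes included. ARNTL (also called BMAL1) pairs with CLOCK or NPAS2 and activates genes that carry E-boxes, among them the Period, Cryptochrome and Nr1d genes. PER and CRY proteins return to the nucleus and repress that activator. The nuclear receptors NR1D1 and NR1D2 (REV-ERB alpha and beta) repress Arntl through ROR response elements, and the PAR bZIP factors DBP, TEF and HLF act on D-boxes in further clock genes. In liver the phase of this loop follows feeding time as well as signals from the brain.

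The libraries held 39916405 to 51340317 counts, and 3 counts corresponded to 0.0590 to 0.0770 CPM (read counts scaled to a common library total, here by the trimmed mean of M-values, TMM). In a principal component plot of all tested genes the ND libraries lay together at -35.7 to -27.9 on the first component. HFD+MEC1 replicate 3 stood apart on the second component at 55.9, where no other library exceeded 26.7. Hepatocyte markers summed to 92506 to 113551 CPM in HFD+MEC1 livers, 101819 to 117203 CPM in HFD livers and 107088 to 124337 CPM in ND livers, and no gene of the 6 liver cell type lists was at 0 throughout a group. In bulk tissue, fewer cells of a type and less RNA per cell cannot be told apart. The labels do not say that each library came from its own mouse, so the p-values measure the spread between these libraries.

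The promoters of 3 genes are printed because they belong to the gene whose difference passed the test (Per3) and to the pair of members with the highest correlation between libraries (Nr1d1 and Nr1d2). The sequences are from RefSeq on build GRCm38.p6, 5′ to 3′ on the gene's own strand, and span 250 bases before to 50 bases after the transcript start. The Per3 window is chr4:151044616-151044915, minus strand, and capitals mark D-boxes. The Nr1d1 window is chr11:98775328-98775627, minus strand, and capitals mark a variant E-box read on the opposite strand (AACGTG, the reverse complement of CACGTT). The Nr1d2 window is chr14:18239057-18239356, minus strand, and capitals mark AGGTCA, the letters searched for as the core of a ROR response element.
Per3: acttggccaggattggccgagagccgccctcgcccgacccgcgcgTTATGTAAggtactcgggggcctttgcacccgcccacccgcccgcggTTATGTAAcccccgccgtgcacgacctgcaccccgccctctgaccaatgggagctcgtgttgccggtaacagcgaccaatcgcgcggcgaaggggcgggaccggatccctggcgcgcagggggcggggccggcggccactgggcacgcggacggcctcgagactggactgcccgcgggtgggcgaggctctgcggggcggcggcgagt
Nr1d1: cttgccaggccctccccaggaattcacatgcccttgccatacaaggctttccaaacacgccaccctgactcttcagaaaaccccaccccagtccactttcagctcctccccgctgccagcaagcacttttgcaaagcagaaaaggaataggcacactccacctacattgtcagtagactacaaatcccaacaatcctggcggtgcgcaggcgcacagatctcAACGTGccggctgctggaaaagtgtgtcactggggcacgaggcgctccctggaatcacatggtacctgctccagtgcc
Nr1d2: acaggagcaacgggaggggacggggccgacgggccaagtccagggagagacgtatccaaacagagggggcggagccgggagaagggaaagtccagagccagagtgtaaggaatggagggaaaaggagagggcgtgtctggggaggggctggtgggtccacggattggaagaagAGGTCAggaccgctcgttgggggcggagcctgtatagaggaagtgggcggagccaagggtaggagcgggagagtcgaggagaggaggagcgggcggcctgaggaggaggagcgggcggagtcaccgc

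A set of 5 motifs was searched on both strands in the windows of the 9 clock genes that the RefSeq promoter table lists, Per2 not being among them. They were the E-box CACGTG, the variant E-box CACGTT, the ROR response element core AGGTCA, the D-box TTATGTAA or TTACGTAA, and the cAMP response element TGACGTCA. No searched motif overlapped another in these windows. Per3 held the D-box TTATGTAA at 205 and at 158 bases before the start, whereas 1.06% of all 32851 windows in the table held a D-box. Nr1d1 held the variant E-box at 28 bases before the start, and 4.68% of all windows did. Nr1d2 held the ROR element core at 77 bases before the start, a short motif found in 16.3% of all windows. The core was searched without the bases that flank it in a full element. Among the other members, Cry1 held an E-box at 60 bases and a variant E-box at 79 bases before the start. Per1 held an E-box at 166 bases and a ROR core at 137 bases before the start of its upstream window, and Cry2 a variant E-box at 166 bases before its start. A ROR core lay in the second Arntl window, beginning at base 32 after the start, and in the third Clock window at 119 bases before the start. E-boxes stood in 7.15% of all windows, cAMP response elements in 1.79% and in none of the 9 members searched. These matches describe letters in a window, and a window without a match leaves the rest of the gene unsearched.

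The design asks 3 questions of these genes: how MEC1 on a high-fat diet compared with vehicle on that diet, how vehicle-treated HFD livers compared with ND livers, and where MEC1-treated livers stood against ND. Differences are log2 fold changes from edgeR's quasi-likelihood fit to the counts of all 12 libraries, with Benjamini-Hochberg adjustment over all 14172 tested genes and a threshold of 0.05. Against ND, 1 of the 10 clock genes fell in HFD+MEC1 livers and 9 did not pass, while 4.54% of all tested genes passed. That gene was Per3, and 3 of 10 had an unadjusted p under 0.05, where 19.1% of all genes did. In HFD against ND livers 0 of 10 passed, where 6.30% of all genes did, and 3 of 10 had an unadjusted p under 0.05, where 20.7% of all genes did. Between HFD+MEC1 and HFD livers 0 of 10 passed, where 0.0282% of all genes did, and 2 of 10 had an unadjusted p under 0.05, where 14.8% of all genes did. DESeq2 called 1 clock gene in HFD against ND livers and 0 in HFD+MEC1 against HFD livers, and limma called 0 in both, on the counts with voom weights and on the RPKM values. Median log2 fold changes of the 10 genes were -0.36 for HFD+MEC1 against HFD, -0.02 for HFD against ND and -0.02 for HFD+MEC1 against ND, beside 0.01, -0.00 and 0.00 over all tested genes. The comparisons share groups, so their values are not independent of each other.

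**Figure D1:**
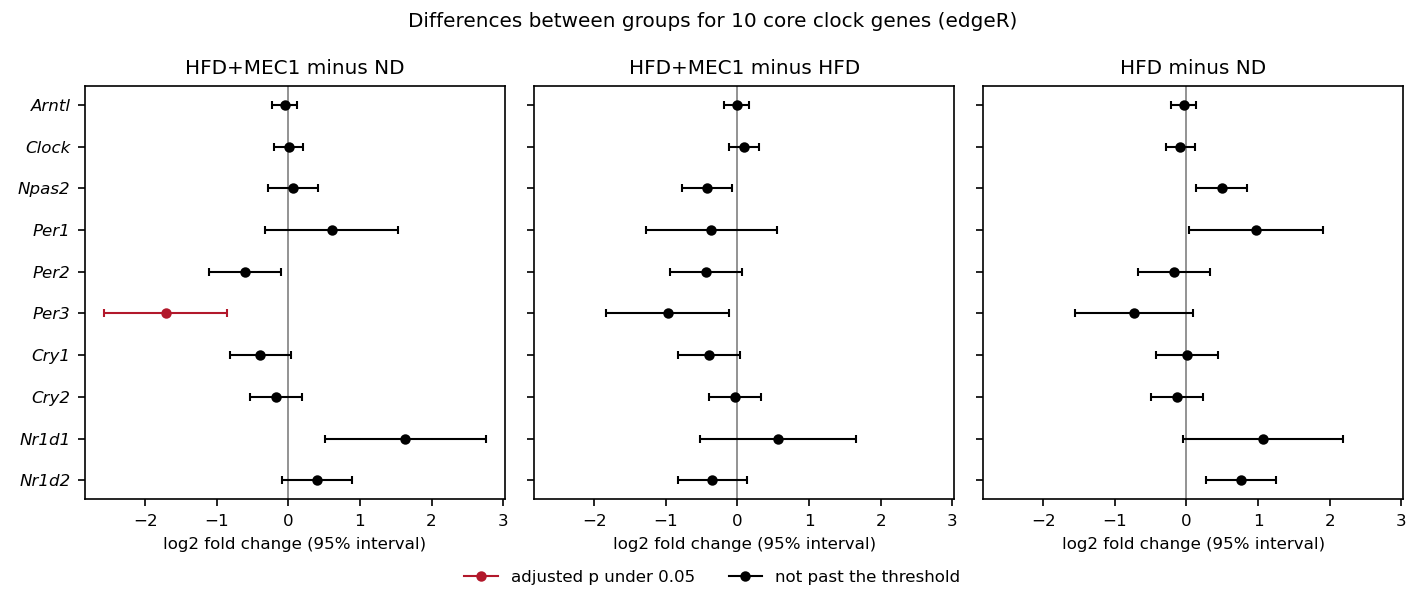
Log2 fold change with its 95% interval (x axis) for each of the 10 core clock genes (y axis) in the 3 comparisons, from edgeR's quasi-likelihood fit to 4 libraries a group. Only Per3 in HFD+MEC1 minus ND is past the adjusted p threshold of 0.05, and the intervals of Arntl and Clock are the narrowest.

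The activators Arntl and Clock held near the same level in the 3 groups. Arntl lies on chromosome 7 (chr7:113207465-113314126, plus strand, build GRCm38, which is mm10) and encodes the obligate partner of the activating pair. It had 25.8, 27.1, 25.8 and 24.1 CPM in HFD+MEC1 livers, 27.8, 25.5, 23.6 and 26.8 CPM in HFD livers, and 27.3, 24.0, 27.1 and 28.3 CPM in ND livers. The groups overlapped throughout, and the highest of the 12 libraries was 1.20-fold above the lowest. The log2 difference was -0.01 ± 0.08 (SE, n = 4 each) between HFD+MEC1 and HFD, with a 95% interval of -0.19 to 0.17, and -0.05 ± 0.08 between HFD+MEC1 and ND, with an interval of -0.23 to 0.13. Between HFD and ND it was -0.04 ± 0.08, with an interval of -0.22 to 0.14. The edgeR adjusted p-values were 0.965, 0.797 and 0.837 in that order of comparisons.

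Clock (chr5:76209868-76304792, minus strand) encodes the usual partner of ARNTL. Its lowest library was HFD replicate 3 at 54.9 CPM and its highest ND replicate 1 at 78.7 CPM. Clock averaged 72.2 ± 4.47 CPM in HFD+MEC1 livers, 67.8 ± 8.86 CPM in HFD livers and 71.9 ± 5.20 CPM in ND livers (SD, n = 4 each). The HFD group held the lowest single value and otherwise lay within the other groups. Log2 differences were 0.09 ± 0.10, -0.09 ± 0.10 and 0.01 ± 0.10 (SE) for HFD+MEC1 against HFD, HFD against ND and HFD+MEC1 against ND. The 95% interval for HFD against ND ran from -0.29 to 0.12, and edgeR adjusted p was 0.669 or above in each.

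Npas2 (chr1:39193731-39363236, plus strand) encodes a CLOCK paralog that can stand in for it as the partner of ARNTL. It had 8.20, 7.43, 7.78 and 5.07 CPM in HFD+MEC1 livers, 9.92, 11.1, 9.15 and 8.07 CPM in HFD livers, and 6.19, 7.40, 7.98 and 5.69 CPM in ND livers. Every HFD library lay above every ND library, and HFD+MEC1 overlapped with both. Npas2 was the 1 clock gene of 10 without overlap between HFD and ND, where 14.3% of all tested genes had none. The log2 difference between HFD and ND was 0.49 ± 0.17 (SE), with an interval of 0.14 to 0.84 and an edgeR adjusted p of 0.0948. With library totals in place of TMM scaling, which raised the median of all genes by 0.12 in this comparison, it was 0.61 with an adjusted p of 0.0448. Between HFD+MEC1 and HFD the log2 difference was -0.42 ± 0.17, with an edgeR adjusted p of 0.243.

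**Figure D2:**
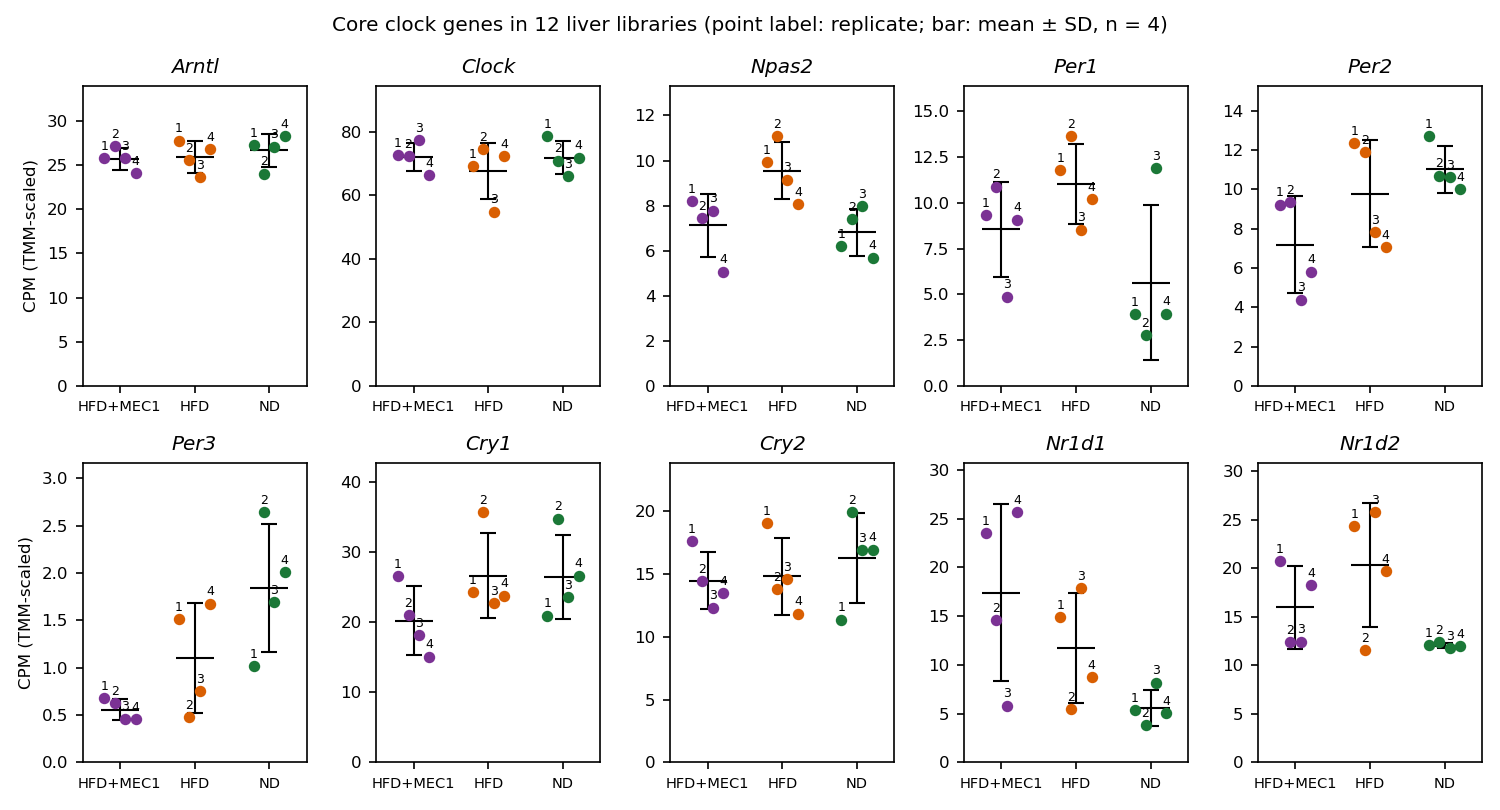
TMM-scaled CPM (y axis, from 0) of each core clock gene in HFD+MEC1, HFD and ND livers (x axis), with 1 point a library, the replicate number beside it, and the mean ± SD of 4 libraries. Arntl varies 1.20-fold over the 12 libraries and Nr1d1 6.72-fold, and the HFD+MEC1 and ND points do not overlap for Per2 and Per3.

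The Period genes did not move as a group. Per3 (chr4:151003652-151044665, minus strand) encodes the family member that the mouse clock can run without. It had 0.678, 0.629, 0.462 and 0.459 CPM in HFD+MEC1 livers, 1.51, 0.475, 0.753 and 1.68 CPM in HFD livers, and 1.02, 2.64, 1.69 and 2.01 CPM in ND livers. All HFD+MEC1 libraries were below all ND libraries, and HFD overlapped with both groups: HFD replicates 2 and 3 were near the HFD+MEC1 values and replicates 1 and 4 within the ND values. Per3 fell in HFD+MEC1 against ND livers by 1.71 on the log2 scale (SE 0.41, 95% interval -2.57 to -0.85, edgeR adjusted p = 0.0241). The log2 difference was -0.98 ± 0.41 between HFD+MEC1 and HFD (edgeR adjusted p = 0.279) and -0.74 ± 0.39 between HFD and ND (edgeR adjusted p = 0.302).

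The Per3 call rests on few reads, 18 to 32 a library in HFD+MEC1 and 45 to 112 in ND. The HFD+MEC1 counts were 32, 32, 18 and 20, all even, and a count may not be an independent fragment. Over the 21 alternatives its adjusted p ran from 0.00136 to 0.0762, and the call was lost without ND replicate 2 (0.0762), without ND replicate 4 (0.0671), without HFD+MEC1 replicate 3 (0.0599) and without HFD+MEC1 replicate 4 (0.0677). It was also lost with limma-voom (0.0567) and with limma on log2(RPKM + 0.1) (0.0601) or log2(RPKM + 1) (0.0669). The log2 change was -1.63 with limma-voom, and -0.88 and -0.19 on the 2 RPKM scales, where the added constant makes the change of a low gene smaller. Whether that accounts for the lost calls was not tested. Markers of other liver cells were also compared between HFD+MEC1 and ND livers, where 4.54% of all tested genes passed. Of 8 sinusoidal endothelial markers, 1 rose (Clec4g, log2 0.49 ± 0.12, adjusted p = 0.0306, lost without ND replicate 1 or 4 or HFD+MEC1 replicate 3 or 4 at 0.0591 to 0.0847 and with the 2 groups alone at 0.0657), and their sum was 352 to 402 CPM in HFD+MEC1 livers and 223 to 342 CPM in ND livers. Of 6 cholangiocyte markers, 1 fell (Epcam, log2 -1.59 ± 0.35, edgeR adjusted p = 0.0148). Epcam had 26 to 36 reads a library in HFD+MEC1 and 42 to 122 in ND. The sum of the 6 was 36.9 to 90.1 CPM in HFD+MEC1 livers and 60.8 to 90.9 CPM in ND livers. None of the 8 Kupffer cell and macrophage markers passed, and their sum was 399 to 540 CPM in HFD+MEC1 livers and 275 to 421 CPM in ND livers. None of 8 stellate cell markers passed (sums of 196 to 334 CPM in HFD+MEC1 livers and 248 to 383 CPM in ND livers), nor did any of the 7 lymphocyte and neutrophil markers tested (15.1 to 23.0 CPM in HFD+MEC1 livers and 12.1 to 14.4 CPM in ND livers). Of 8 hepatocyte markers, 1 fell (Cps1, log2 -1.14 ± 0.22, adjusted p = 0.00762). An unadjusted edgeR p under 0.05 was found for 4 of 8 Kupffer cell and macrophage and 2 of 8 endothelial markers. It was also found for 3 of 6 cholangiocyte and 1 of 8 hepatocyte markers, beside 19.1% of all tested genes. No stellate cell or lymphocyte and neutrophil marker had one. All 8 Kupffer cell and macrophage and all 8 endothelial markers had positive log2 differences, and 5 of 6 cholangiocyte markers negative ones. The part of these markers in the Per3 result was not tested.

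Per2 (chr1:91415982-91459324, minus strand) encodes a principal repressor of the loop. It had 9.22, 9.34, 4.39 and 5.80 CPM in HFD+MEC1 livers, 12.3, 11.9, 7.81 and 7.06 CPM in HFD livers, and 12.7, 10.7, 10.6 and 10.01 CPM in ND livers. HFD+MEC1 lay below ND without overlap, and HFD replicates 3 and 4 were below every ND library while replicates 1 and 2 were within the ND range. Per2 and Per3 were the 2 of 10 clock genes without overlap between HFD+MEC1 and ND, where 11% of all tested genes had none. The log2 difference of Per2 between HFD+MEC1 and ND was -0.61 ± 0.24 (SE), with an interval of -1.12 to -0.11 and an edgeR adjusted p of 0.166. Against HFD it was -0.44 ± 0.24 in HFD+MEC1 livers (edgeR adjusted p = 0.408), and no clock gene of the 10 was free of overlap in that comparison, where 7.11% of all genes were.

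Per1 (chr11:69095217-69109960, plus strand) encodes a repressor of the same family whose transcript responds quickly to glucocorticoids and cAMP. It had 9.35, 10.9, 4.88 and 9.08 CPM in HFD+MEC1 livers, 11.8, 13.7, 8.54 and 10.2 CPM in HFD livers, and 3.93, 2.76, 11.9 and 3.95 CPM in ND livers. ND replicate 3 was at the level of the HFD libraries, and the other 3 ND libraries were below all 8 libraries of the other groups. With all libraries the log2 difference was 0.97 ± 0.42 between HFD and ND (SE, edgeR adjusted p = 0.224) and 0.61 ± 0.42 between HFD+MEC1 and ND (edgeR adjusted p = 0.491). Without ND replicate 3 it was 1.63 for HFD against ND, with an edgeR adjusted p of 0.00313, and 1.27 for HFD+MEC1 against ND, with 0.0126. A single ND library thus decided on which side of the threshold Per1 lay. Between HFD+MEC1 and HFD the log2 difference was -0.37 ± 0.42 (edgeR adjusted p = 0.737).

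The Cryptochromes, the partners of PER and the stronger repressors of the activating pair, did not pass in any comparison. Cry1 (chr10:85131700-85185064, minus strand) had 26.6, 21.0, 18.1 and 15.1 CPM in HFD+MEC1 livers, 24.3, 35.7, 22.7 and 23.8 CPM in HFD livers, and 21.0, 34.8, 23.6 and 26.7 CPM in ND livers. The 2 libraries above 30 CPM were HFD replicate 2 and ND replicate 2, and 3 of 4 HFD+MEC1 libraries were below all HFD libraries. The log2 difference of Cry1 was -0.40 ± 0.20 between HFD+MEC1 and HFD (SE, edgeR adjusted p = 0.381), with an interval of -0.83 to 0.04. Against ND it was -0.39 ± 0.20 in HFD+MEC1 livers and 0.01 ± 0.20 in HFD livers.

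Cry2 (chr2:92403646-92434043, minus strand) averaged 14.5 ± 2.28 CPM in HFD+MEC1 livers, 14.8 ± 3.06 CPM in HFD livers and 16.3 ± 3.57 CPM in ND livers (SD, n = 4 each). Its lowest and highest libraries were both ND, replicate 1 at 11.4 CPM and replicate 2 at 19.9 CPM, so the spread within ND covered that of the other groups. The log2 difference was -0.03 ± 0.17 between HFD+MEC1 and HFD, with an interval of -0.40 to 0.33, and edgeR adjusted p was 0.658 or above in the 3 comparisons. In the annotation 4.67% of the exonic bases of Cry2 overlap a gene on the opposite strand, and whether the counts used strand is not given in the sources used here.

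Of the 2 repressor receptors, Nr1d1 spread more widely between libraries. Nr1d1 (chr11:98767932-98775333, minus strand) encodes REV-ERB alpha, the main repressor of Arntl in liver. It had 23.5, 14.6, 5.83 and 25.6 CPM in HFD+MEC1 livers, 14.9, 5.44, 17.9 and 8.78 CPM in HFD livers, and 5.37, 3.82, 8.17 and 5.07 CPM in ND livers. The ND libraries were low, with an SD of 0.450 on the log2 scale, against 0.976 in HFD+MEC1 and 0.773 in HFD. HFD+MEC1 replicate 3 and HFD replicate 2 lay within the ND range and the other 6 libraries above it. The nearest of those was HFD replicate 4 at 8.78 CPM, beside ND replicate 3 at 8.17 CPM. The log2 difference was 1.64 ± 0.50 between HFD+MEC1 and ND (SE), with a 95% interval of 0.51 to 2.76 and an edgeR adjusted p of 0.105. DESeq2 gave 1.63 with an adjusted p of 0.0194, and edgeR without HFD+MEC1 replicate 3, the library that stood apart, gave 1.92 with 0.0374. Nr1d1 passed in only these 2 of the 21 alternatives for this comparison. In the other 19 it did not pass, and the highest adjusted p among the alternatives was 0.228. The log2 difference was 0.57 ± 0.49 between HFD+MEC1 and HFD (edgeR adjusted p = 0.646) and 1.07 ± 0.50 between HFD and ND (edgeR adjusted p = 0.262).

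Of the exonic bases of Nr1d1, 8.55% overlap the thyroid hormone receptor gene Thra on the opposite strand. Thra averaged 14.2 ± 1.76 CPM in HFD+MEC1 livers, 14.1 ± 1.47 CPM in HFD livers and 16.3 ± 0.301 CPM in ND livers (SD, n = 4 each) and passed in no comparison. The part of Thra reads in the Nr1d1 values was not tested.

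Nr1d2 (chr14:18204054-18239127, minus strand) encodes REV-ERB beta, which shares the targets of REV-ERB alpha. It had 20.7, 12.4, 12.4 and 18.3 CPM in HFD+MEC1 livers, 24.3, 11.5, 25.7 and 19.7 CPM in HFD livers, and 12.1, 12.4, 11.8 and 11.96 CPM in ND livers. The ND libraries were nearly equal, with an SD of 0.0297 on the log2 scale, against 0.383 in HFD+MEC1 and 0.526 in HFD. In the HFD group, replicates 1, 3 and 4 were above all ND libraries and replicate 2 below them. The log2 difference between HFD and ND was 0.76 ± 0.23 (SE), with an interval of 0.27 to 1.24 and an edgeR adjusted p of 0.0673. It passed in the edgeR fit without HFD replicate 2 (log2 0.95, adjusted p = 0.00642) and without HFD+MEC1 replicate 1 (adjusted p = 0.0469). The latter library is in neither compared group and enters through the shared spread, the scaling, the count filter and the p-value adjustment. DESeq2 (adjusted p = 0.0112) and an edgeR fit of the HFD and ND libraries alone (adjusted p = 0.0412) also passed it. Over the alternatives its adjusted p ran from 0.00642 to 0.193. The log2 difference was -0.35 ± 0.22 between HFD+MEC1 and HFD (edgeR adjusted p = 0.503) and 0.41 ± 0.23 between HFD+MEC1 and ND (edgeR adjusted p = 0.363).

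Levels between genes were compared per transcript length, as the RPKM values the authors deposited. The lengths behind these values are not given in the sources used here, and the order of the genes depends on them. Without scaling for length, Clock averaged 70.6 CPM, Arntl 26.1 CPM and Cry1 24.5 CPM. Over the 12 libraries Arntl averaged 7.05 ± 0.513 RPKM, Cry1 6.38 ± 1.53, Clock 5.60 ± 0.455, Nr1d1 3.37 ± 2.29 and Cry2 3.00 ± 0.589 RPKM (SD). Below them Nr1d2 averaged 2.77 ± 1.04 RPKM, Npas2 1.48 ± 0.360, Per1 1.42 ± 0.628, Per2 1.25 ± 0.344 and Per3 0.150 ± 0.0877 RPKM. In this order 2 steps held in nearly every library: Nr1d2 was above Npas2 in 11 of 12 and Per2 above Per3 in 12 of 12. Arntl was above Cry1 in 10 of 12 libraries, with a mean difference of 0.670 ± 1.60 RPKM (SD), Cry1 above Clock in 8 and Clock above Nr1d1 in 9. Nr1d1 was above Cry2 in 6 of 12 libraries, Cry2 above Nr1d2 in 7, Npas2 above Per1 in 5 and Per1 above Per2 in 9, so these neighbours did not differ beyond their spread.

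Within each group Arntl had the highest and Per3 the lowest mean RPKM. The place of Nr1d1 differed between groups: by mean RPKM it was above Cry2 and Nr1d2 in HFD+MEC1 livers, between them in HFD livers and below both in ND livers. Per1 was above Npas2 and Per2 in HFD+MEC1 and HFD livers and below both in ND livers. The ratio of Nr1d1 to Arntl in RPKM was 0.963, 0.568, 0.238 and 1.12 in HFD+MEC1 livers, 0.566, 0.224, 0.799 and 0.346 in HFD livers, and 0.208, 0.168, 0.319 and 0.189 in ND livers. It exceeded every ND value in 3 of 4 HFD+MEC1 libraries and in 3 of 4 HFD libraries.

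**Figure D3:**
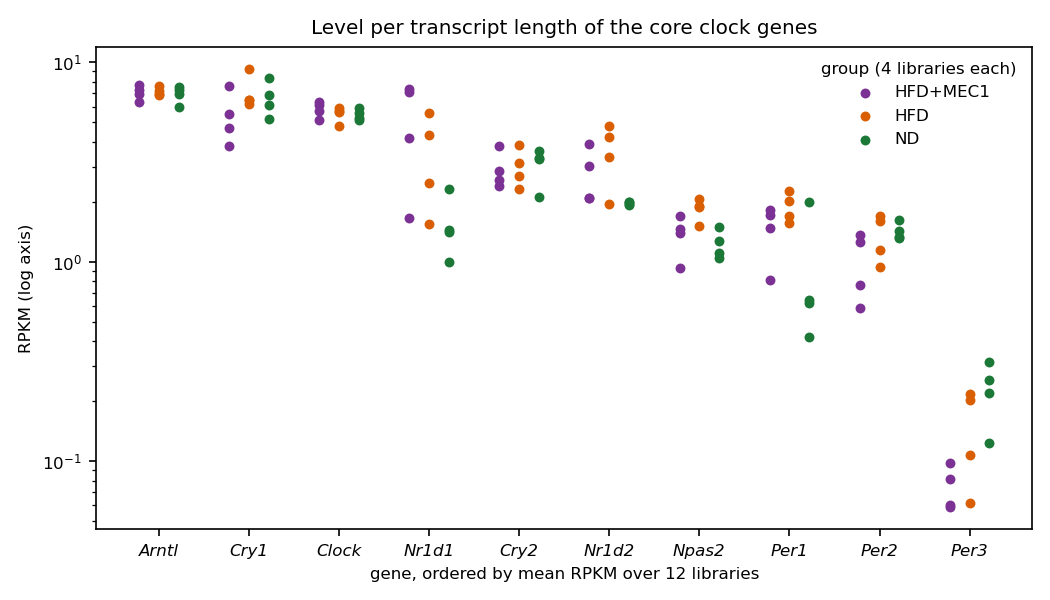
RPKM on a log axis (y) of the 10 core clock genes (x, ordered by mean over the 12 libraries), with 1 point a library for HFD+MEC1, HFD and ND. Arntl is highest at a mean of 7.05 RPKM, Per3 lowest at 0.150 RPKM, and Nr1d1 extends from 0.997 to 7.38 RPKM.

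The members differed widely in how much they varied between libraries of the same group. The biological coefficient of variation (BCV), which edgeR estimates for each gene within groups, was 0.101 for Arntl, a value below which 3.15% of all tested genes lay. It was 0.470 for Nr1d1, 0.406 for Per1 and 0.371 for Per3, with 91.8%, 87.9% and 85.4% of all genes below. The median over all tested genes was 0.163. Clock was at 0.117, Npas2 at 0.171, Cry2 at 0.177, Cry1 at 0.200, Nr1d2 at 0.223 and Per2 at 0.234. Over all 12 libraries, so with differences between groups included, the ratio of the highest to the lowest library was 6.72 for Nr1d1, 5.75 for Per3 and 4.96 for Per1. It was between 1.20 and 2.90 for the other 7 genes. Within a single group the ratio reached 4.40 for Nr1d1 (HFD+MEC1), 3.53 for Per3 (HFD) and 4.32 for Per1 (ND). The genes with the wide ratios are those whose intervals in the comparisons were also the widest.

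Whether members varied together was examined after subtracting each group's mean log2 CPM, so that differences between groups do not enter. Of the 45 pairs of clock genes, 26 had a positive correlation over the 12 libraries and 7 had a Pearson r beyond 0.5 in size. No pair passed a threshold of 0.05 after Benjamini-Hochberg adjustment over the 45 pairs (exact two-sided permutation test within groups, 13824 arrangements), and 2 pairs had an unadjusted p under 0.05. Nr1d1 and Nr1d2 had r = 0.79 (exact permutation p = 0.0164, adjusted 0.436) and Spearman's rho = 0.66 (exact permutation p = 0.0702, adjusted 0.735). Without the libraries farthest out in Nr1d1, HFD replicate 2 and HFD+MEC1 replicate 3, r was 0.64. Clock and Nr1d1 had r = -0.68 (exact permutation p = 0.0194, adjusted 0.436) and rho = -0.59 (exact permutation p = 0.0391, adjusted 0.735), and r was -0.59 without HFD replicates 2 and 3. Nr1d1 and Arntl, the repressor and its target, had r = -0.07. Within single groups of 4 libraries these correlations were not computed.

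**Figure D4:**
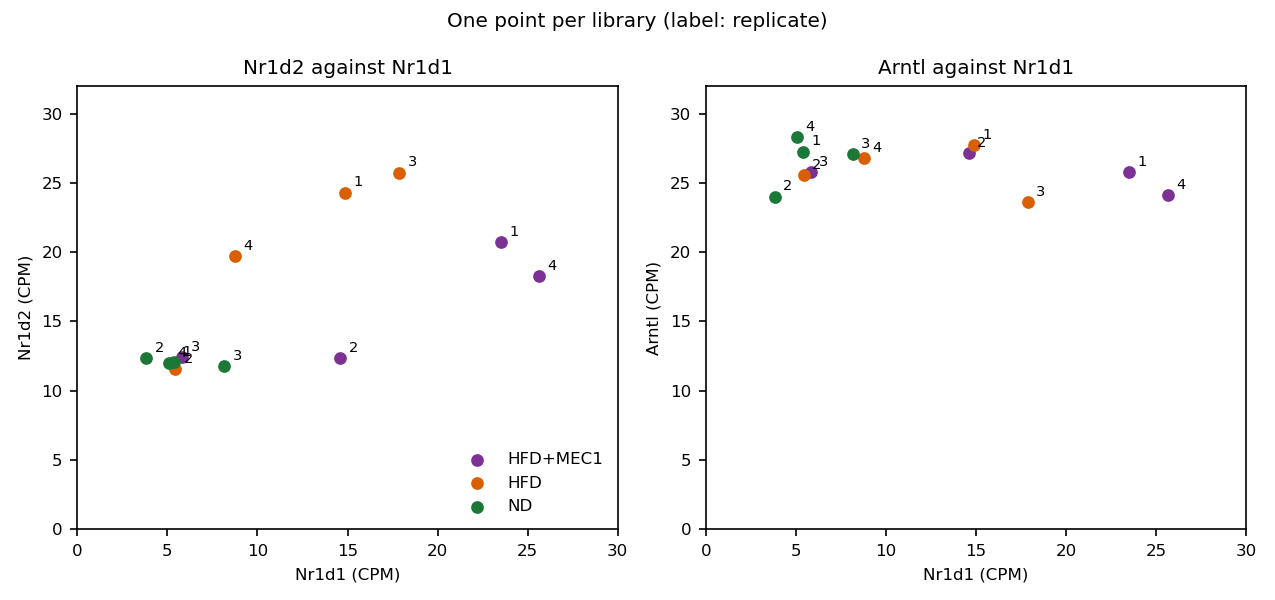
Left, Nr1d2 against Nr1d1, and right, Arntl against Nr1d1, both axes in TMM-scaled CPM from 0, with 1 point a library labelled by replicate and coloured by group. Nr1d2 is near 12 CPM in the ND libraries, HFD replicate 2 and HFD+MEC1 replicate 3, and reaches 25.7 CPM in HFD replicate 3. It is 12.4 CPM in HFD+MEC1 replicate 2, where Nr1d1 is 14.6 CPM, and 19.7 CPM in HFD replicate 4, where Nr1d1 is 8.78 CPM. Arntl stays between 23.6 and 28.3 CPM over the whole range of Nr1d1.

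Genes whose deviations were most like those of Arntl and Nr1d1 were taken from 12018 tested genes with a mean of at least 1 CPM, as a description over 12 libraries that share depth and composition. With Arntl the highest r belonged to Paf1 (0.92), Lrch3 (0.92), Nsd1 (0.92) and Fat1 (0.92), and the lowest to Tsen15 (-0.93), Dleu2 (-0.93), Cntln (-0.91) and Brk1 (-0.90). With Nr1d1 the highest belonged to Usp18 (0.93), Derl2 (0.92), Ndufb8 (0.92) and Aldh9a1 (0.91), and the lowest to Fnip1 (-0.94), Loxl4 (-0.93), Arl8b (-0.92) and Hacd3 (-0.91). None of these genes is a clock gene of the lists used. They are the extremes of 12018 correlations over 12 libraries. Whether their r, or the ranks of members, exceed what such a search returns by chance was not tested. Among members, Nr1d2 ranked 99 of 12018 in likeness to Nr1d1 and Clock ranked 11684, and Clock ranked 827 in likeness to Arntl.

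Of 7 transcription factors that carry the clock's output, 6 were tested and 2 fell in HFD+MEC1 against ND livers, Tef and Bhlhe40, where 4.54% of all tested genes passed. None of the 6 passed in HFD+MEC1 against HFD (0 with an unadjusted p under 0.05, beside 14.8% of all genes) or in HFD against ND (2 with an unadjusted p under 0.05, beside 20.7% of all genes). Tef, a PAR bZIP activator of D-box genes, had 21.4, 17.3, 13.6 and 18.6 CPM in HFD+MEC1 livers, 25.9, 20.2, 20.7 and 18.02 CPM in HFD livers, and 25.9, 37.1, 22.5 and 29.1 CPM in ND livers. The HFD+MEC1 and ND groups did not overlap, with a log2 difference of -0.69 ± 0.16 (edgeR adjusted p = 0.0250). Bhlhe40 (DEC1), a repressor at E-boxes, had 33.3, 40.2, 34.0 and 41.2 CPM in HFD+MEC1 livers, 45.7, 47.1, 49.4 and 55.0 CPM in HFD livers, and 105.4, 71.3, 41.0 and 64.4 CPM in ND livers. ND replicate 3 lay at the level of the HFD+MEC1 libraries, and the log2 difference was -0.92 ± 0.22 (edgeR adjusted p = 0.0351). Over the alternatives the adjusted p ran from 0.00287 to 0.0707 for Tef and from 0.000299 to 0.104 for Bhlhe40. The Tef call was lost without ND replicate 2 or 4 or HFD+MEC1 replicate 2, 3 or 4 (0.0528 to 0.0707), with library totals (0.0523) and with log2(RPKM + 0.1) or log2(RPKM + 1) (0.0673 and 0.0704). The Bhlhe40 call was lost without ND replicate 2 or 4, HFD replicate 2 or 3, or any HFD+MEC1 library (0.0516 to 0.104), with no count filter (0.0532), with limma-voom (0.0560) and with the 2 groups alone (0.0985).

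The other output factors did not pass. Dbp, the clock's classic D-box activator, averaged 1.88 ± 0.521 CPM in HFD+MEC1 livers, 1.45 ± 0.514 CPM in HFD livers and 1.28 ± 0.135 CPM in ND livers. Hlf, of the same family, averaged 35.9 ± 3.78 CPM, 33.3 ± 7.44 CPM and 35.6 ± 3.61 CPM in those groups, and Nfil3, the repressor at D-boxes, 54.6 ± 9.44 CPM, 47.9 ± 1.95 CPM and 45.1 ± 12.1 CPM (SD, n = 4 each). Bhlhe41 (DEC2) had at most 1.04 CPM in any library. Ciart, a repressor of the activating pair, was under the count filter, with at most 16 counts in a library. Per3, Tef, Hlf and Dbp differed in level: Dbp and Per3 had fewer than 3 CPM in every library, Tef and Hlf more than 13 CPM.

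Of 22 genes that modify the clock proteins or their activity, 21 were tested, and Rorb was under the filter. Against ND, 2 fell in HFD+MEC1 livers, among them Prkaa2 (log2 -0.40 ± 0.09, edgeR adjusted p = 0.0222), which encodes a catalytic subunit of AMP-activated kinase. Prkaa2 averaged 55.7 ± 6.82 CPM in HFD+MEC1 livers, 72.5 ± 5.25 CPM in HFD livers and 73.7 ± 5.16 CPM in ND livers (SD, n = 4 each). Against ND, 1 rose in HFD livers, Skp1a (log2 0.49 ± 0.11, edgeR adjusted p = 0.0143), a subunit of the SCF ubiquitin ligases, and 1 fell, Usp2 (log2 -1.16 ± 0.31, edgeR adjusted p = 0.0354), a deubiquitinase whose transcript is rhythmic in liver. Between HFD+MEC1 and HFD livers 0 of 21 passed by edgeR, and 4 had an unadjusted p under 0.05, where 14.8% of all genes did. Over all tested genes 4.54% passed in HFD+MEC1 against ND and 6.30% in HFD against ND. The list's median log2 differences were -0.03, -0.02 and -0.06 for HFD+MEC1 against HFD, HFD against ND and HFD+MEC1 against ND. The Prkaa2 call was lost without ND replicate 1 or 4 or HFD+MEC1 replicate 2 or 3 (adjusted p of 0.0515 to 0.0799) as well as with library totals (0.0993) and with log2(RPKM + 0.1) or log2(RPKM + 1) (0.115 and 0.116). Skp1a missed the threshold when ND replicate 4 (0.0567) or HFD replicate 3 (0.0564) was left out, and Usp2 without ND replicate 1, 2 or 4 or HFD replicate 1, 3 or 4 (0.0613 to 0.117).

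Among 20 liver genes known for daily rhythms, 3 rose and 2 fell in HFD against ND livers, 2 rose and 1 fell in HFD+MEC1 against ND livers, and 0 passed in HFD+MEC1 against HFD livers, where 6 had an unadjusted p under 0.05. Over all tested genes 6.30%, 4.54% and 0.0282% passed in these comparisons, and 14.8% had an unadjusted p under 0.05 in the last. Mfsd2a, a lysophospholipid transporter, averaged 27.1 ± 21.2 CPM in HFD+MEC1 livers, 70.0 ± 13.2 CPM in HFD livers and 3.79 ± 1.58 CPM in ND livers (SD, n = 4 each). Its log2 difference was 4.21 ± 0.66 between HFD and ND (edgeR adjusted p = 0.00692). Rgs16, a regulator of G-protein signalling, ranged over 1.73 to 21.8 CPM in HFD+MEC1 livers and 14.5 to 62.9 CPM in HFD livers, and was at most 0.483 CPM in ND livers. Upp2, a uridine phosphorylase, averaged 28.4 ± 15.3 CPM in HFD+MEC1 livers, 24.4 ± 9.67 CPM in HFD livers and 117.4 ± 38.7 CPM in ND livers, with log2 differences of -2.04 ± 0.46 for HFD+MEC1 against ND (edgeR adjusted p = 0.0383) and -2.27 ± 0.46 for HFD against ND (edgeR adjusted p = 0.0200). Por, the electron donor of cytochromes P450, fell in HFD against ND livers by 0.72 on the log2 scale (SE 0.14, edgeR adjusted p = 0.00638), and the 21 alternatives kept that call. In HFD against ND livers the Upp2 call was lost without ND replicate 4 or HFD replicate 2 or 3 (adjusted p of 0.0508 to 0.0727), and that of Rgs16 with limma-voom (0.282). For HFD+MEC1 against ND the calls were lost without most single libraries: without any ND or HFD library or HFD+MEC1 replicate 1 or 4 for Mfsd2a (0.0521 to 0.109), without any ND library, HFD replicate 1 or 4 or HFD+MEC1 replicate 1 or 4 for Rgs16 (0.0532 to 0.111), and without ND replicate 1, 2 or 4, HFD replicate 3 or HFD+MEC1 replicate 1, 2 or 3 for Upp2 (0.0506 to 0.0881). They were also lost in the fit of the 2 groups alone (0.109 for Mfsd2a, 0.0805 for Rgs16 and 0.0767 for Upp2). For Mfsd2a and Rgs16 they were lost as well with limma-voom (0.154 and 0.483) and log2(RPKM + 1) (0.0621 and 0.153). An unadjusted p under 0.05 was found for 7 of the 20 in HFD against ND livers, beside 20.7% of all genes. It was found for 8 in HFD+MEC1 against ND livers, beside 19.1%. The list's median log2 differences were -0.30, -0.05 and -0.24 for HFD+MEC1 against HFD, HFD against ND and HFD+MEC1 against ND.

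Genes that follow feeding or glucocorticoids share the daily schedule of the clock. Of 16 feeding state genes, 2 rose and 2 fell in HFD against ND livers, 3 rose and 5 fell in HFD+MEC1 against ND livers, and 1 fell in HFD+MEC1 against HFD livers, beside 6.30%, 4.54% and 0.0282% of all tested genes that passed in either direction. Cpt1a, the entry step of fatty acids into mitochondria, averaged 430.2 ± 52.5 CPM in HFD+MEC1 livers, 363 ± 27.3 CPM in HFD livers and 186 ± 19.1 CPM in ND livers (SD, n = 4 each). Sik1, a cAMP-induced kinase, averaged 8.94 ± 2.88 CPM in HFD+MEC1 livers, 7.54 ± 2.34 CPM in HFD livers and 24.3 ± 5.97 CPM in ND livers. Both kept their calls against ND in all 21 alternatives. Srebf1, the lipogenic regulator, fell in HFD+MEC1 against ND livers by 1.44 on the log2 scale (SE 0.19, edgeR adjusted p = 0.00128). Fgf21, a fasting hepatokine, ranged over 3.68 to 8.63 CPM in HFD+MEC1 livers and 1.54 to 11.6 CPM in HFD livers, and was at most 0.435 CPM in ND livers. With limma-voom both Fgf21 calls against ND were lost (0.198 for HFD+MEC1 and 0.158 for HFD). Igfbp2, a binding protein of insulin-like growth factors, fell in HFD against ND livers by 1.20 on the log2 scale (SE 0.24, edgeR adjusted p = 0.0123). Pnpla3, a lipid droplet lipase, fell in HFD+MEC1 against HFD livers, with 0.141 ± 0.0444 CPM in HFD+MEC1 livers and 2.14 ± 1.47 CPM in HFD livers (log2 -3.91 ± 0.61, edgeR adjusted p = 0.0499). That call rests on few reads, 4 to 8 a library in HFD+MEC1 and 26 to 182 in HFD. Pnpla3 missed the threshold without ND replicate 1 or 4, HFD replicate 1 or 3, or HFD+MEC1 replicate 2, 3 or 4 (0.0528 to 0.151). It also missed it with library totals (0.0594), limma-voom (0.138), log2(RPKM + 0.1) (0.0975), log2(RPKM + 1) (0.133) and the 2 groups alone (0.0794). An unadjusted p under 0.05 was found for 9 of the 16 in HFD against ND livers, beside 20.7% of all genes. It was found for 9 in HFD+MEC1 against ND livers, beside 19.1%, and for 8 in HFD+MEC1 against HFD livers, beside 14.8%. The list's median log2 differences were -0.24, 0.24 and -0.22 for HFD+MEC1 against HFD, HFD against ND and HFD+MEC1 against ND.

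Of 10 glucocorticoid-responsive genes, Per1 among them, 1 rose in HFD+MEC1 against ND livers, where 4.54% of all tested genes passed. In that comparison 7 had an unadjusted p under 0.05, beside 19.1% of all genes. By edgeR 0 passed in HFD+MEC1 against HFD (6 with an unadjusted p under 0.05, beside 14.8% of all genes) or in HFD against ND (3 with an unadjusted p under 0.05, beside 20.7%). The gene that rose was Zbtb16, a zinc finger repressor, with 36.7 ± 3.99 CPM in HFD+MEC1 livers, 9.24 ± 5.07 CPM in HFD livers and 5.70 ± 0.888 CPM in ND livers (SD, n = 4 each). Its log2 difference from ND was 2.68 ± 0.34 in HFD+MEC1 livers (edgeR adjusted p = 0.00163), and from HFD 1.99 ± 0.33 (edgeR adjusted p = 0.0632). Per1, in contrast, had lower mean CPM in HFD+MEC1 than in HFD livers, by a difference that did not pass. The list's median log2 differences were 0.56, 0.06 and 0.69 for HFD+MEC1 against HFD, HFD against ND and HFD+MEC1 against ND, beside 0.01, -0.00 and 0.00 over all tested genes.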

How the data were processed

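Liver RNA from 12 samples was sequenced, with 4 in each of the HFD+MEC1, HFD and ND groups named by the sample titles. Per sample, the authors deposited raw counts as whole numbers, indexed by gene symbol, and for the series a table of RPKM values. STAR 2.7.10a and mm10 are named in the submitters' processing notes, and the counting tool, annotation and strand use are not given in the sources used here. That table holds 12 further columns that match no sample title and were not analysed. In each library 70.1 to 74.7% of genes with 1 to 20 counts had an even count, so a count may not be an independent fragment, and intervals cover counting and replicate error as the fit sees them.

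Counts were fitted with edgeR 4.0.16 (filterByExpr, TMM, robust quasi-likelihood F-test, 3 groups in 1 fit of 14172 genes, tested on simulated data), two-sided, with intervals at 95%. The SE is the log2 fold change divided by the root of the F statistic. Log2 CPM used a prior count of 2. Alternatives were DESeq2 1.42.0, limma 3.58.1 (voom, and log2 of RPKM + 0.1 or + 1), other scalings, no count filter, 2 groups alone, a replicate block, and each library left out. Same-numbered libraries deviated from their group means with correlations of -0.094 to 0.133, so the numbers were not taken to pair samples. No replicates agreed within sampling noise (at least 35.3 chi-square units per gene).

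The members and gene lists were chosen with earlier results of these data known. Named from other lists were all 7 output factors and up to 4 genes past the threshold with the smallest adjusted p for each list and comparison, and for likeness the 4 highest and 4 lowest genes; 1 gene that this rule names is not reported here. Gene coordinates and strand overlaps are from GENCODE M21, and promoters from the RefSeq table. The lists comprised the members, output factors, modifiers, rhythmic, feeding state and glucocorticoid-responsive genes and markers of hepatocytes, Kupffer cells and macrophages, sinusoidal endothelium, stellate cells, cholangiocytes, and lymphocytes and neutrophils.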

Additional observations from a re-analysis of the deposited data

Results flagged for a closer look

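Per1 in ND replicate 3 was at 11.9 CPM, far from the other ND libraries at 3.93, 2.76 and 3.95 CPM, with a gap to the nearest of 0.869 of the group's range, above Dixon's 95% critical value. Cry1 in HFD replicate 2 was at 35.7 CPM, apart from 24.3, 22.7 and 23.8 CPM in the other HFD libraries, with a gap of 0.880 of the range. Both came from 30 tested combinations of gene and group, of which chance flags about 1 in 20.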

How the results depend on the processing

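Of 630 values of single members under the alternatives, 587 kept direction and side of the threshold. No clock gene passed in HFD+MEC1 against HFD in any of the 21 alternatives. In HFD against ND the count of 0 was 1 with library totals, with DESeq2 and with the 2 groups alone, and 0 to 1 with a library left out. In HFD+MEC1 against ND the count of 1 was 2 with DESeq2, 0 with limma-voom and 0 with either RPKM pseudocount, and 0 to 2 with a library left out. With the replicate block it was 2, Per3 (adjusted p = 0.0411) and Per2 (log2 -0.67, adjusted p = 0.0307), in a design that does not say the numbers pair samples. The block also lost the HFD+MEC1 against ND calls of Bhlhe40 (0.0582), Mfsd2a (0.111) and Rgs16 (0.0650). Genes passing in HFD against ND numbered 893, 1388 with DESeq2 and 423 to 1109 with a library left out. In HFD+MEC1 against HFD 4 passed, 0 with library totals, 17 without the filter, 389 with DESeq2, 2 with limma-voom, 0 and 1 with RPKM + 0.1 and + 1, 21 with the replicate block, 2 with the 2 groups alone, and 0 to 460 with a library left out. In HFD+MEC1 against ND 644 passed, 1155 with DESeq2 and 334 to 678 with a library left out. Library totals moved the share of higher calls to 79.5% against 53.2% (HFD against ND) and to 66.8% against 47.2% (HFD+MEC1 against ND). The RPKM fits gave 72.6% and 72.0%, and 64.2% and 62.7%. Signs turned only for members near 0. Against ND, Arntl in HFD became 0.079, 0.054 and 0.047 and Clock 0.031, 0.0011 and 0.0013 with library totals, RPKM + 0.1 and RPKM + 1, and Cry1 -0.0022 with the replicate block. With a library left out these ran from -0.093 to 0.0017 for Arntl, -0.14 to 0.0019 for Clock and -0.17 to 0.16 for Cry1. Between HFD+MEC1 and HFD they ran from -0.054 to 0.022 for Arntl and -0.14 to 0.11 for Cry2. Between HFD+MEC1 and ND, Arntl became 0.018, 0.029 and 0.025 with library totals, RPKM + 0.1 and RPKM + 1, and with a library left out Clock ran from -0.036 to 0.051 and Npas2 from -0.013 to 0.20. The cause was not tested. Among the members, depth limits Per3 most, at 18 to 112 reads a library.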
